A study of Mus musculus with 2 samples.

Results

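Hormone-sensing luminal cells of the mouse mammary gland were taken from 2 single-cell RNA-seq libraries by a gate on their own counts. A cell passed when at least 50 per 10000 of its unique molecular identifiers (UMIs, the counted molecules) came from Krt18, a luminal keratin, and at least 4 per 10000 from Prlr, the prolactin receptor. It was left out when Wfdc18, Csn3 and Aldh1a3, genes of luminal progenitors, together reached 5 per 10000 or when 7 motile cilia genes together had 3 UMIs or more. The gate held 1547 of the 8909 cells with at least 500 genes and at most 10% mitochondrial UMIs, 1013 cells in the cKO library and 534 in the Ctrl library. The cells were thus chosen by their measured counts of these genes, and levels of Krt18, Prlr, the progenitor genes and the cilia genes are given below as description only.

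The cKO library came from C57BL/6 mice, K8-CreERT2;miR-200c/141-flox/flox, in which the keratin 8 promoter drives a tamoxifen-inducible Cre in luminal cells, and the Ctrl library from miR-200c/141-flox/flox mice without the Cre. Mice of both groups received tamoxifen at 8 to 10 weeks of age, and glands were collected 4 weeks later, digested and enriched for mammary cells by FACS; another label gives an age of 8 weeks. How many mice went into each library is not stated in the labels. With 1 library per group there is no replicate and no test between groups, so "higher" and "lower" below describe 2 libraries, and every interval is a 95% interval for counting error only.

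Hormone-sensing cells are the luminal cells that carry receptors for estrogen, progesterone and prolactin. They answer these hormones and pass the signal to their neighbours through secreted factors such as amphiregulin, Wnt4 and RANKL. The microRNAs miR-200c and miR-141 come from 1 transcript and are best known for holding epithelial cells in an epithelial state by repressing Zeb1 and Zeb2, while the title of the series names Ccnd1, the gene of cyclin D1, as a target tied to estrogen receptor α activity.

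The mature microRNAs that the floxed locus encodes are shown because their seeds, bases 2 to 8 in capitals, set which messages they can pair with. Both are on the minus strand of chromosome 6 of GRCm38.p6 (RefSeq), miR-200c-3p at chr6:124718324-124718346 and miR-141-3p at chr6:124717917-124717938. The single match to the miR-141-3p seed in the annotated 3′ UTR of Ccnd1 (GENCODE M21, GRCm38, chr7:144931640-144931668, minus strand, base 950 of 2676) is printed with the match in capitals; that UTR held no match to the miR-200c-3p seed.
mmu-miR-200c-3p: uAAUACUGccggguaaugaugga
mmu-miR-141-3p: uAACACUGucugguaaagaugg
Ccnd1 miR-141-3p match: ctagctggaggCAGTGTTgctggtgtgtg

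Gated cells made up 18.4% of the kept cells in cKO (17.4 to 19.5%) and 15.6% in Ctrl (14.4 to 16.9%). Of the cells past the Krt18 clause alone they were 26.3% in cKO (24.9 to 27.7%, of 3849) and 24.9% in Ctrl (23.1 to 26.8%, of 2146), so the intervals overlapped on that denominator. The progenitor clause removed the most cells: 1071 cKO and 753 Ctrl cells failed by that clause only, and these cells with both luminal programs had a median of 27006 and 47559 UMIs. The cilia clause alone removed 121 cKO cells and 1 Ctrl cell. FACS and the unequal depth of the libraries can both set such shares, and their part was not tested.

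Gated cells held 14201767 UMIs in cKO and 13171933 in Ctrl. The median gated cell had 12343 UMIs and 3025 genes in cKO, against 21708.5 UMIs and 4179.5 genes in Ctrl, while mitochondrial UMIs had medians of 2.41% and 2.62%. Shares of cells with a UMI are therefore given after every cell was thinned to 2000 UMIs, which left out 7 gated cells in each library, and sums are given in counts per 1000000 UMIs (CPM) of the class summed. The libraries shared 6 barcodes, of which 3 were gated in cKO and 1 in Ctrl.

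At the Prlr edge of the gate, 87 cKO and 68 Ctrl cells lay just inside, at 4 to under 6 per 10000, and 70 cKO and 33 Ctrl cells just outside, at 2 to under 4. Esr1, the gene of estrogen receptor α, stood at 28.4 CPM in cKO and 36.9 CPM in Ctrl just inside the edge, and at 23.0 and 28.6 CPM just outside. Pgr, the progesterone receptor, stood at 95.1 CPM in cKO and 77.5 CPM in Ctrl inside, and at 71.1 and 52.7 CPM outside. The edge thus cut through cells that also carried the other receptors. Most gated cells had no UMI of the 3 progenitor genes, 59.7% in cKO and 53.9% in Ctrl. Prlr itself had a median of 12.97 per 10000 in gated cKO cells and 10.9 in gated Ctrl cells.

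The receptors that the gate did not use fitted the name of the cells, and they were within counting error of each other between the libraries. Esr1 (chromosome 10, 4611593 to 5005614, plus strand) had 38.3 CPM in gated cKO cells (35.2 to 41.7) and 39.3 CPM in gated Ctrl cells (35.9 to 42.8), a log2 ratio of -0.04 (-0.21 to 0.14). Pgr (chromosome 9, 8899833 to 8968611, plus strand) had 90.3 CPM in cKO (85.5 to 95.4) and 89.1 CPM in Ctrl (84.1 to 94.4), a log2 ratio of 0.02 (-0.10 to 0.13). In progenitor-gated cells, which are Krt18-gated cells with the progenitor genes and without Prlr, Esr1 had 5.47 CPM in cKO and 7.04 CPM in Ctrl, and Pgr 15.9 and 15.05 CPM. Both receptors were thus several-fold higher inside the gate than in progenitor-gated cells of either library. They were not particular to the gate: cells with both programs had 23.6 CPM of Esr1 in cKO and 26.8 CPM in Ctrl and 62.2 and 56.5 CPM of Pgr, and the cilia-gated cells of cKO had 41.6 and 63.6 CPM of Esr1 and Pgr.

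Shares of cells told the same of the receptors once depth was equal. After thinning, 7.55% of gated cKO cells (6.00 to 9.36%) and 8.16% of gated Ctrl cells (5.97 to 10.8%) had an Esr1 UMI. In basal-marker cells, which have Krt5 or Krt14 and low Krt18 and should lack the gene, the shares were 0.711% in cKO and 0.129% in Ctrl, at median depths before thinning of 7538.5 and 10380.5 UMIs. Pgr was found in 15.5% of gated cKO cells and 15.2% of gated Ctrl cells, against 0.853% and 0.515% of basal-marker cells. These shares come from a single random draw. In another draw Esr1 was found in 6.76% of gated cKO and 7.59% of gated Ctrl cells, and in 0.569% and 0.387% of basal-marker cells. Pgr was found there in 16.2% of gated cKO and 18.6% of gated Ctrl cells. Without thinning, Esr1 was found in 36.4% of gated cKO cells and 55.2% of gated Ctrl cells, a gap that goes against the CPM and follows the depth.

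Cited1 and Areg, the remaining markers of the set, differed between the libraries in opposite directions. Cited1, a transcriptional co-regulator known to bind estrogen receptor α, had 837 CPM in gated cKO cells and 2301 CPM in gated Ctrl cells, a log2 ratio of -1.46 (-1.49 to -1.43). Areg, the gene of the EGF receptor ligand amphiregulin, had 5017 CPM in cKO and 2585 CPM in Ctrl, a log2 ratio of 0.96 (0.94 to 0.98). Both differences were also present outside the gate. In progenitor-gated cells Cited1 had 102.2 CPM in cKO and 333 CPM in Ctrl, and Areg 942 and 448 CPM.

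**Figure D1:**
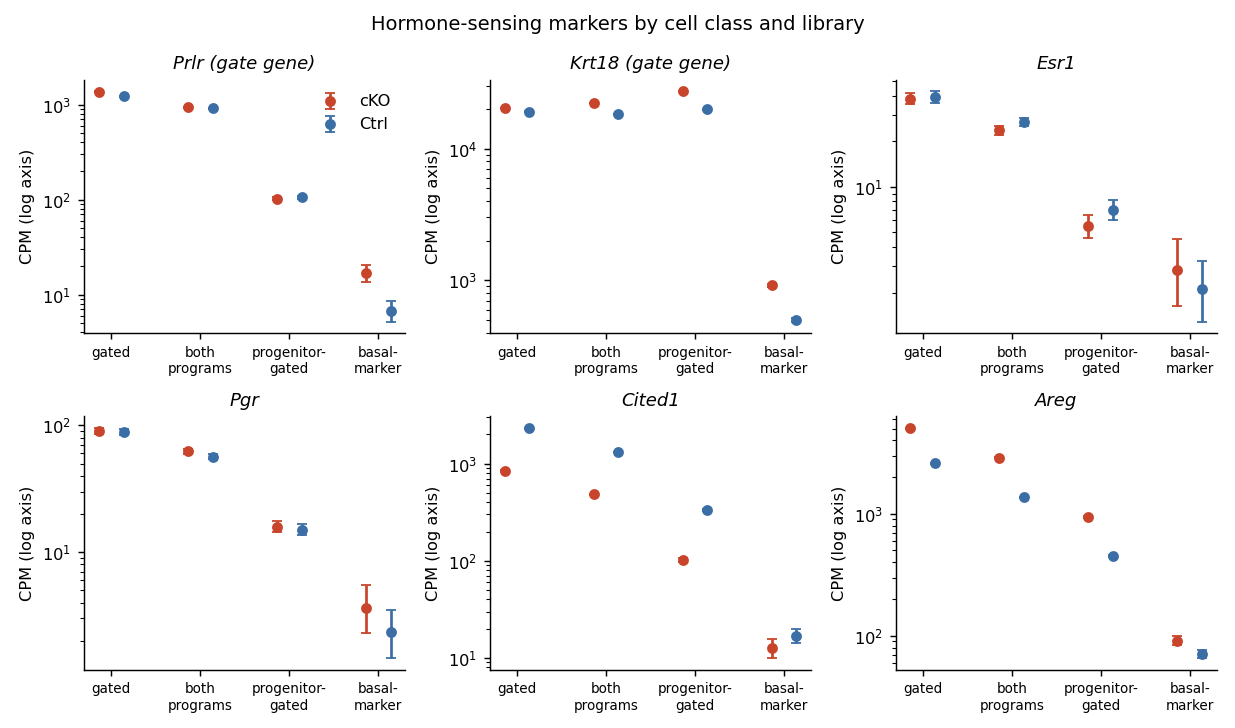
Summed level (CPM, log axis) of 6 hormone-sensing markers in gated cells, cells with both luminal programs, progenitor-gated cells and basal-marker cells, cKO left of Ctrl, with exact Poisson 95% intervals. Esr1 and Pgr coincide between the libraries inside the gate, while Cited1 is lower and Areg higher in cKO in each of the 3 luminal classes drawn.

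Of 10 further hormone-sensing markers, 2 were at least 1.5-fold higher in gated cKO cells and 4 at least 1.5-fold lower. For reference, 12.4% of the 12101 genes with at least 20 UMIs in gated cells were higher by that fold and 18.6% were lower, and their median log2 ratio was -0.10. The 12101 genes are called all measured genes below. In progenitor-gated cells the same shares were 7.89% and 12.9% of 12693 genes. Median ratios of the gene lists below were taken in gated and progenitor-gated cells only, and not in cells with both programs or cilia-gated cells. Prom1, a surface protein of these cells, had 28.0 CPM in cKO and 16.7 CPM in Ctrl, and Tbx3, a transcription factor, had 120.1 and 77.7 CPM. Foxa1, the pioneer factor of estrogen receptor α, had 40.0 CPM in cKO and 64.2 CPM in Ctrl, and Cxcl15, a chemokine, had 256 and 408 CPM. Ly6a, the gene of the surface antigen Sca-1 used to sort these cells, was close to equal at 2929.8 CPM in cKO and 2975 CPM in Ctrl.

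Set against all other Krt18-gated cells of the same library, gated cells had 14.8% of 10990 tested genes at least 1.5-fold higher and 15.3% lower in cKO, and 14.9% of 10937 higher and 15.6% lower in Ctrl. The gate chose the cells from these counts, so these values describe them and are no test. By the smaller of both ratios the leading genes were Ptpn5, Rrm2, Cthrc1, Ly6a, Atp6v0e2, Mettl7a1, Fam25c, Cysrt1, Trpc6 and Ctse. Ly6a stood at 2929.8 CPM in gated cells and 1133 CPM in the other cells of cKO, and at 2975 and 1173 CPM in Ctrl. Rrm2, a subunit of ribonucleotide reductase, stood at 28.1 and 10.8 CPM in cKO, and at 24.1 and 5.77 CPM in Ctrl.

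Among these leading genes were some whose contrast with the other cells was alike in both libraries although the level was not. Fam25c had 789 CPM in gated cells and 294 CPM in the others of cKO, against 103 and 40.8 CPM in Ctrl. Trpc6, a calcium-permeable channel, had 82.2 CPM in gated cells and 31.8 CPM in the others of cKO, against 16.8 and 6.69 CPM in Ctrl. The other cells include the cells with both programs, so each ratio is smaller than against progenitor-gated cells, in which Trpc6 had 11.8 CPM in cKO and 2.87 CPM in Ctrl.

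The gate selects against progenitor genes, whose 14 listed markers together still had 730.3 CPM in gated cells of cKO and 1428 CPM in those of Ctrl, against 19571 and 20270.0 CPM in progenitor-gated cells. The lowest ratios belonged to Klk10, Bcl2a1b, Apod, Muc20, Car2, Scgb2b27, Dlx5, Bcl2a1d, G0s2 and Alox12e. Klk10, a secreted kallikrein-family protease, had 0.352 CPM in gated cells and 37.1 CPM in the other Krt18-gated cells of cKO, and 0.835 and 66.1 CPM in Ctrl. Car2, carbonic anhydrase 2, had 5.07 CPM in gated cells and 146 CPM in the others of cKO, and 4.71 and 143 CPM in Ctrl. Car2 was thus about equally low in gated cells of both libraries.

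Across genes with at least 100 UMIs in the library where they were higher, 788 of 8276 (9.52%) were at least 1.5-fold higher in gated cKO cells and 1211 (14.6%) at least 1.5-fold lower. At a 2-fold threshold the counts were 390 (4.71%) and 440 (5.32%). The split depended on scaling: size factors from the median ratio put the median over the genes with at least 20 UMIs at 0.01, against -0.10 by totals, and gave 1021 higher and 923 lower genes. Trimmed-mean scaling gave 931 and 1008. With every cell thinned to 5000 UMIs before gating, 562 genes were higher and 456 lower of 4295 tested, so the excess of lower genes did not hold there. In progenitor-gated cells 4.4% of 9136 genes were higher and 9.23% lower by 1.5-fold.

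**Figure D2:**
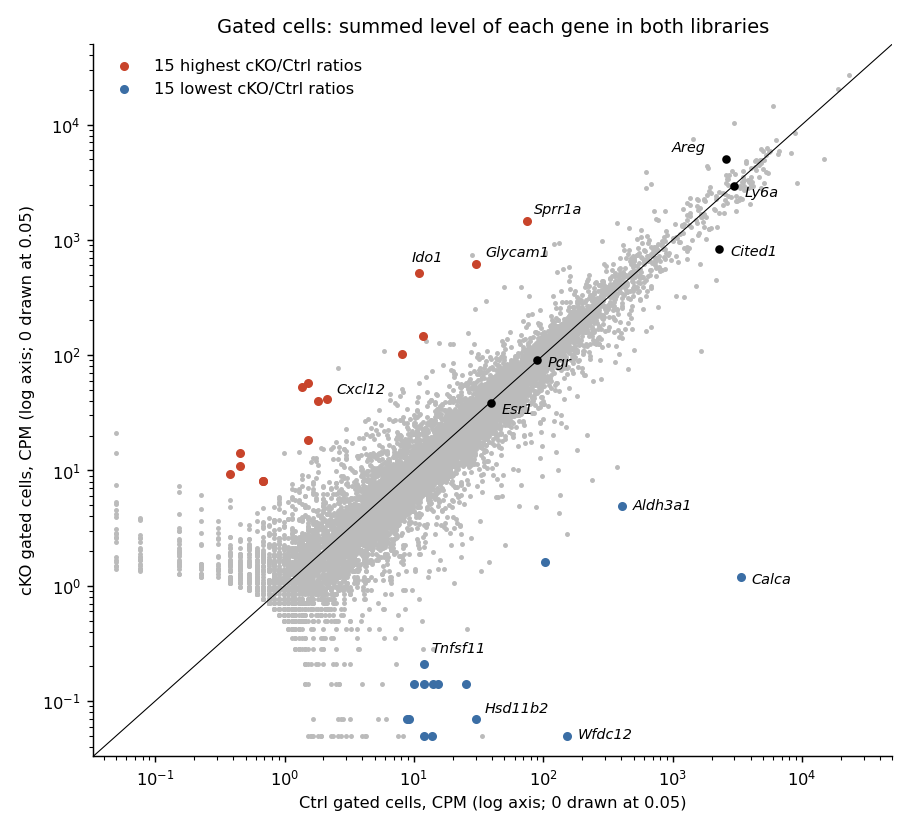
Summed level of each gene in gated cKO cells (vertical, CPM, log axis) against gated Ctrl cells (horizontal, CPM, log axis), with the 15 highest and 15 lowest ratios coloured and Esr1, Pgr, Ly6a, Cited1 and Areg as black points. Ido1, Glycam1 and Sprr1a lie far above the diagonal at high levels, Calca far below it, and Esr1, Pgr and Ly6a on it.

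Ido1, the gene of a tryptophan-degrading enzyme induced by interferon (chromosome 8, 24584136 to 24597009, minus strand), had the highest ratio by the rule for named genes. It had 520.1 CPM in gated cKO cells and 11.01 CPM in gated Ctrl cells, 47.3-fold higher (40.1 to 56.1). After thinning, 36.8% of gated cKO cells and 2.09% of gated Ctrl cells had an Ido1 UMI, against 1.42% and 0 of 776 basal-marker cells. The difference was therefore spread over many cells, and it was present outside the gate at lower levels, with 62.1 CPM in cKO and 1.35 CPM in Ctrl in progenitor-gated cells.

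Sprr1a, a precursor of the cornified envelope of barrier epithelia, had 1465 CPM in cKO and 74.7 CPM in Ctrl, 19.6-fold higher (18.4 to 20.9). It was found in 42.1% of thinned gated cKO cells and 9.11% of gated Ctrl cells, against 2.99% and 0.258% of basal-marker cells. Fxyd6, a regulator of the sodium pump, had 147 CPM in cKO and 11.8 CPM in Ctrl and was found in 24.8% and 2.47% of thinned cells, against 8.11% and 4.38% of basal-marker cells. Ido1, Sprr1a and Fxyd6 were the abundant genes among the 15 highest whose UMIs were not concentrated, with 13.7%, 19.95% and 8.02% of their cKO UMIs in the top 1% of cells.

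Il33, Cxcl12 and Nppc, which encode secreted signals, were also among the 15 highest ratios. Il33, an alarm cytokine of the interleukin-1 family, had 52.6 CPM in cKO and 1.37 CPM in Ctrl. Cxcl12, the chemokine ligand of CXCR4, had 41.4 and 2.13 CPM, and Nppc, the gene of C-type natriuretic peptide, 57.5 and 1.52 CPM, with 53.2% of its cKO UMIs in the top 1% of cells. These were found in fewer cells than Ido1: the thinned shares were 5.07%, 5.37% and 4.47% in gated cKO cells, and 0.190%, 0.190% and 0 in gated Ctrl cells. In basal-marker cells the shares of Il33, Cxcl12 and Nppc were 0.427%, 23.3% and 1.42% in cKO and 0, 14.3% and 1.03% in Ctrl, so those of Cxcl12 lay below that level inside the gate. Basal-marker cells had 148 CPM of Cxcl12 in cKO and 71.9 CPM in Ctrl, and endothelial-marker cells 145 CPM of Il33 in cKO and 9.18 CPM in Ctrl. Without gated cells above 10 per 10000 of other-lineage markers, the log2 ratio was 5.01 for Cxcl12, against 4.28 with them, and 7.68 for Il33, against 5.27. With Dcn not counted among those markers, an alternative chosen after seeing the data, they were 5.405 and 5.18.

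For some of the highest ratios most UMIs lay in few cells, or the share of cells equalled that in basal-marker cells. Glycam1, a mucin-like ligand made by high endothelial venules, had 620.3 CPM in gated cKO cells and 30.2 CPM in gated Ctrl cells, but 73.4% of its cKO UMIs lay in the top 1% of cells. Its thinned shares, 32.2% in cKO and 6.07% in Ctrl, equalled those of basal-marker cells, 32.9% and 5.80%, and so are at the level of background. Hamp, Gdf15 and Cbr2 had 81.1%, 71.9% and 66.9% of their cKO UMIs in the top 1% of cells. Rpgrip1, Trdv4, Lhfpl4, Tmsb15b1 and Bmp4 completed the 15 highest, at 8.10 to 14.3 CPM in cKO and 0.380 to 0.683 CPM in Ctrl.

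Calca, which encodes calcitonin and calcitonin gene-related peptide (chromosome 7, 114631478 to 114636357, minus strand), had the lowest ratio. Gated cKO cells held 17 Calca UMIs and gated Ctrl cells 44481, or 1.20 CPM (0.697 to 1.92) and 3377 CPM (3346 to 3408). Before thinning, 10 of 1013 gated cKO cells (0.987%, 0.474 to 1.81%) and 98.7% of gated Ctrl cells had a Calca UMI. After thinning, 0 of 1006 gated cKO cells had one in the draw plotted here and 2 in another random draw, while 85.4% and 84.4% of gated Ctrl cells had at least 1; in the draw plotted, 33.8% of them had 8 or more. Basal-marker cells of Ctrl had a share of 4.51% and 21.1 CPM, and those of cKO had no UMI of it. Cells with both programs showed the same contrast, with 0.909 CPM in cKO and 2372 CPM in Ctrl, and progenitor-gated cells had 0 and 537 CPM.

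Other genes with low ratios were also abundant in gated Ctrl cells and nearly absent in gated cKO cells. Wfdc12, a gene of the whey acidic protein family, had 0 UMIs in cKO and 2012 in Ctrl, at least 723-fold lower against a floor of 3 counts in the cKO sum. Aldh3a1, an aldehyde dehydrogenase, had 4.93 CPM in cKO and 409 CPM in Ctrl and was found in 0.398% and 33.6% of thinned cells, against 0 and 1.29% of basal-marker cells. Hsd11b2, the enzyme that inactivates glucocorticoids, had 1 UMI in cKO and 398 in Ctrl, 429-fold lower with a counting interval of 76.6 to 16991.

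Unlike Calca, Wfdc12 was found in few gated Ctrl cells, 6.07% after thinning, and 51.1% of its UMIs lay in the top 1% of cells. Saa1, an acute-phase protein, had 1.62 CPM in cKO and 103 CPM in Ctrl, with 54.6% of the Ctrl UMIs in the top 1% of cells. Sftpd, Fmo1, Slc4a8, Fam20a, Insc, Got1l1 and Hpdl had 1 or 2 UMIs each in cKO and 116 to 334 in Ctrl. Xlr4a and Klk1b8 had 0 UMIs in cKO and 182 and 157 in Ctrl, at least 65.4-fold and 56.4-fold lower by the same floor.

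**Figure D3:**
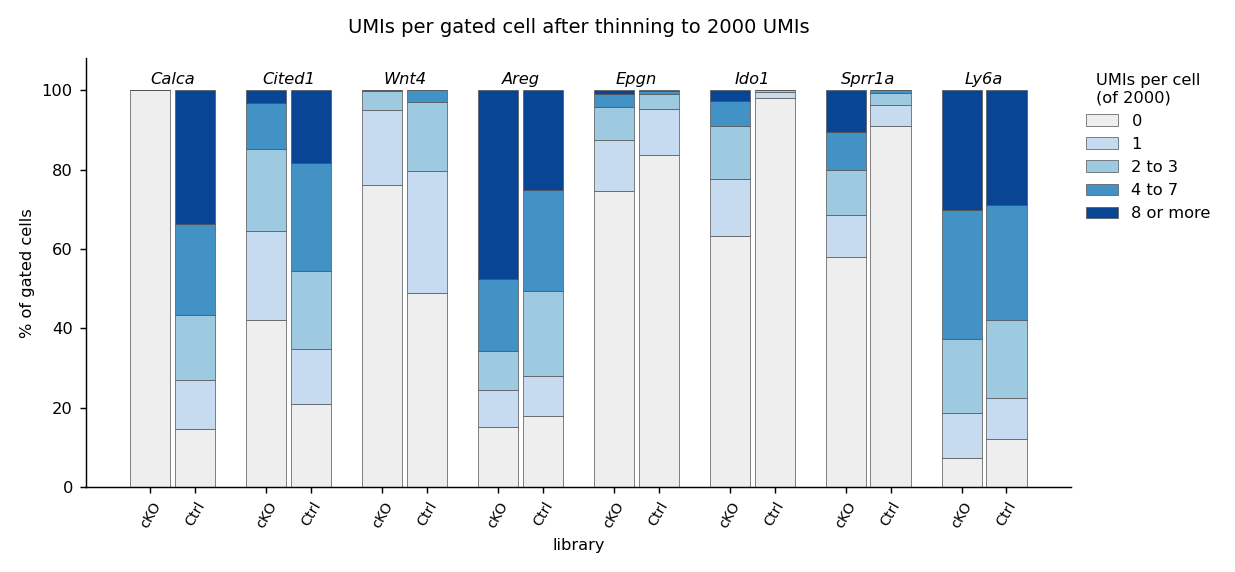
Share of gated cells (percent) with 0, 1, 2 to 3, 4 to 7, or 8 or more UMIs of 8 genes after thinning each cell to 2000 UMIs, cKO left of Ctrl for each gene. In this single random draw every thinned cKO cell is at 0 for Calca (2 of 1006 had a UMI in another draw) while 85.4% of Ctrl cells are above 0, Cited1 and Wnt4 shift down and Areg, Epgn, Ido1 and Sprr1a up in cKO, and Ly6a is alike.

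Prolactin signals through its receptor, the kinase Jak2 and the transcription factors Stat5a and Stat5b, and is held back by proteins of the Cish and Socs family. Of 12 measured genes of this pathway, the gate gene Prlr included, 3 were at least 1.5-fold higher and 6 lower in gated cKO cells. The shares over all measured genes were 12.4% and 18.6%. The median log2 ratio of the pathway was -0.37. In progenitor-gated cells 1 was higher and 1 lower, with a median of -0.09. Stat5a had 75.1 CPM in gated cKO cells and 137 CPM in gated Ctrl cells (log2 ratio -0.87, -0.98 to -0.76), and Jak2 had 31.4 and 54.8 CPM. Socs2, a Stat5 target that feeds back on the receptor, had 85.0 CPM in cKO and 171 CPM in Ctrl. The pathway was not lower throughout: Socs1 had 22.0 CPM in cKO and 9.72 CPM in Ctrl, Socs3 had 363 and 222 CPM, and Stat3, at 116 and 124 CPM, did not pass the fold.

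Socs2 was close to equal in progenitor-gated cells, at 46.9 CPM in cKO and 44.6 CPM in Ctrl. Stat5b, Cish and Shc1 were the other lower members inside the gate, at 9.72, 3.87 and 16.7 CPM in cKO and 15.3, 6.15 and 28.4 CPM in Ctrl. Elf5, the milk-lineage factor of progenitors, was the third higher member but low, at 5.70 CPM in gated cKO cells and 2.81 CPM in gated Ctrl cells. Whether the Jak2 and Stat5 levels differ with the number of cells that contribute or with the level per cell was not separated.

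Among estrogen receptor α and its partners, 1 of 12 measured genes was at least 1.5-fold higher in gated cKO cells and 5 lower. All measured genes gave 12.4% higher and 18.6% lower, and the list median was -0.40. Greb1, an estrogen-induced cofactor of the receptor, was the higher one, at 46.4 CPM in cKO and 14.9 CPM in Ctrl. Ncoa1, a steroid receptor coactivator, had 8.10 CPM in cKO and 17.8 CPM in Ctrl, and Foxa1, Cited1, Ncoa2 and Tle3 were the other lower genes. The corepressor gene Ncor1 did not pass the fold, with a log2 ratio of 0.25.

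Genes reported as estrogen targets moved both ways: 4 of 16 measured were higher, 4 lower, and the median log2 ratio was 0.00. The shares over all measured genes were 12.4% higher and 18.6% lower. Greb1, Areg, Cxcl12 and Igfbp4 were higher. Ctsd, the lysosomal protease cathepsin D, had 319.8 CPM in gated cKO cells and 1215 CPM in gated Ctrl cells (log2 ratio -1.93, -1.97 to -1.88), and Wnt4, Cited1 and Igf1r were the other lower genes. Ctsd was lower in progenitor-gated cells by less, at 186 CPM in cKO and 339 CPM in Ctrl.

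Genes that progesterone is known to induce, or that mark progesterone receptor cells, gave 3 higher and 6 lower of 13 measured. All measured genes gave 12.4% higher and 18.6% lower. The list median was 0.02, with log2 ratios that reached -11.46 for Calca. It was -1.35 over the members with at least 100 UMIs and -1.38 after thinning to 5000 UMIs. Tnfsf11, the gene of RANKL, had 3 UMIs in gated cKO cells and 157 in gated Ctrl cells, 56.4-fold lower with a counting interval of 18.96 to 277. Before thinning it was found in 11.6% of gated Ctrl cells, and 35.7% of its Ctrl UMIs lay in the top 1% of cells. Wnt4, a secreted Wnt ligand, had 156 CPM in cKO and 398 CPM in Ctrl (log2 ratio -1.35, -1.42 to -1.28). It was found in 24.0% and 51.2% of thinned cells, against 3.13% and 1.93% of basal-marker cells. In another random draw the gated Wnt4 shares were 28.2% and 52.4%. These RANKL and Wnt4 differences stood beside Pgr levels that were within counting error of each other.

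Fkbp5 and Zbtb16, which glucocorticoid and progesterone receptors both induce, were lower too. Fkbp5 had 3.31 CPM in gated cKO cells and 22.6 CPM in gated Ctrl cells, and Zbtb16 0.915 and 8.50 CPM. In progenitor-gated cells Fkbp5 had 17.2 CPM in cKO and 23.0 CPM in Ctrl, so the gap was smaller there. Calca and Hsd11b2, described above, are the other lower members, and Areg, Cxcl12 and the cytokine gene Lif, at 17.0 and 8.28 CPM, the higher ones. Nr3c1, the glucocorticoid receptor gene, had 18.9 CPM in cKO and 16.3 CPM in Ctrl and did not pass the fold.

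Of 11 measured nuclear receptor genes, Thra and Nr3c2 were higher and Vdr was lower, against 12.4% higher and 18.6% lower over all measured genes. Vdr, the vitamin D receptor, had 5.84 CPM in gated cKO cells and 45.0 CPM in gated Ctrl cells, a log2 ratio of -2.95 (-3.29 to -2.61). In progenitor-gated cells Vdr had 16.4 CPM in cKO and 32.5 CPM in Ctrl, and in basal-marker cells 28.2 and 24.3 CPM. Thra, the thyroid hormone receptor α gene, had 36.5 CPM in cKO and 16.02 CPM in Ctrl.

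Ligands of the EGF family leave these cells to act on neighbours. Of 8 measured, 4 were at least 1.5-fold higher in gated cKO cells and none lower, against 12.4% and 18.6% of all measured genes. The list median was 0.72. Progenitor-gated cells had 1 higher, 2 lower and a median of -0.20. Besides Areg, Epgn (epigen) had 291 CPM in cKO and 140.1 CPM in Ctrl, and Btc (betacellulin) had 24.6 and 9.95 CPM. Areg was also higher in cKO in cells with both programs, at 2889 CPM against 1366 CPM in Ctrl. Ereg (epiregulin) was higher on 17 and 8 UMIs, with an interval of its log2 ratio that spans 0 (-0.31 to 2.40). Without the Scrublet doublet calls the list had a median of 0.46, with 3 of 7 higher and 1 lower.

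The receptors of these ligands differed in their level inside the gate. Egfr, the receptor of amphiregulin, had 1.20 CPM in gated cells and 25.8 CPM in progenitor-gated cells of cKO, and 1.37 and 31.2 CPM in Ctrl. Erbb3, the kinase-impaired partner receptor, had 38.4 CPM in gated cKO cells and 80.3 CPM in gated Ctrl cells, against 27.7 and 50.1 CPM in progenitor-gated cells. Erbb2 had 6.06 CPM in gated cKO cells and 13.4 CPM in gated Ctrl cells, against 8.03 and 10.2 CPM in progenitor-gated cells. Ghr, the growth hormone receptor, had 21.8 CPM in cKO and 7.36 CPM in Ctrl, and Met, the receptor of hepatocyte growth factor, 20.7 and 8.96 CPM.

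Among 13 measured growth factor and cytokine receptors, the gate gene Prlr included, 3 were higher and 3 lower in gated cKO cells. The shares over all measured genes were 12.4% and 18.6%. Kit, on 20 and 3 UMIs, and Igf1r, on 21 and 44 UMIs, completed the receptors past the fold. Fgfr2 and Lifr marked the gate against progenitor-gated cells. Fgfr2, a fibroblast growth factor receptor, had 60.3 CPM in gated cells and 7.23 CPM in progenitor-gated cells of cKO, and 49.0 and 10.8 CPM in Ctrl. Lifr, the receptor of leukemia inhibitory factor, had 54.8 and 7.82 CPM in cKO, and 55.1 and 9.19 CPM in Ctrl. Neither passed 1.5-fold between the libraries inside the gate.

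Of the interferon-stimulated genes, 11 of 16 measured were at least 1.5-fold higher in gated cKO cells and none lower. All measured genes gave 12.4% higher and 18.6% lower, and the list median was 0.92. Ifit1, an antiviral RNA-binding protein, had 7.68 CPM in cKO and 1.14 CPM in Ctrl, Rsad2 (viperin) had 20.1 and 4.78 CPM, and Isg15, a ubiquitin-like modifier, had 41.5 and 19.2 CPM. Irf7, the transcription factor that amplifies the response, had 13.2 CPM in cKO and 5.16 CPM in Ctrl. The list was alike in progenitor-gated cells, with 10 of 16 higher and a median of 0.79. Endothelial-marker cells had 513 CPM of Isg15 in cKO and 103 CPM in Ctrl; without gated cells above 10 per 10000 of other-lineage markers the list kept a median of 0.80, with 10 of 15 higher.

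Stretches of 3 of these promoters are shown because they hold the interferon-stimulated response element, GAAA, any 2 bases and GAAA, searched on both strands from 250 bases before to 50 after the start. It was found for 8 of 13 list genes with a matched promoter (61.5%), against 3.44% of 32851 single RefSeq promoters. A list gene counted when any of its promoters held the element, so the list share is per gene and the other per promoter. The stretches are from GRCm38.p6: Isg15 at chr4:156200873-156200898 and Rsad2 at chr12:26456555-26456580, both minus strand, and Ifit1 at chr19:34640777-34640802, plus strand. Capitals mark the element, in Ifit1 and Rsad2 read on the other strand.
Isg15: aggaaaagGAAACCGAAAcagaaaat
Ifit1: ggcttcagTTTCACTTTCcagtctca
Rsad2: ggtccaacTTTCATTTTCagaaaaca
A match describes the letters and is neither a bound site nor a cause of the levels. Other elements were searched in the same windows. The Stat5-type element TTCNNNGAA was found for 3 of 11 matched genes of the prolactin list (Prlr, Cish and Socs3), against 8.30% of all promoters. It was also found for 3 of 13 matched interferon-stimulated genes, so it was not particular to the prolactin list. The palindromic estrogen response element, GGTCA, any 3 bases and TGACC, was found for 0 of 15 matched estrogen target genes, against 0.0700% of all promoters. A single arm of that element, AGGTCA, was found for 6 of the 15 genes (40.0%), against 16.3% of all promoters. Here too the list shares are per gene and the others per promoter.

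Antigen presentation genes gave 6 higher and 0 lower of 12 measured, with a median of 0.52, against 2 higher and 1 lower with a median of 0.03 in progenitor-gated cells. The immunoproteasome subunits led: Psmb8 had 437 CPM in gated cKO cells and 219 CPM in gated Ctrl cells, and Psmb9 had 121 and 49.2 CPM. Tap2, a peptide transporter, had 181 CPM in cKO and 119 CPM in Ctrl. B2m, the light chain of class I molecules, went the other way without passing the fold, at 725 CPM in cKO and 1071 CPM in Ctrl. Nlrc5, Cd74 and the class II gene H2-Eb1, on 14 and 6 UMIs, were the other higher members.

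The cholesterol pathway differed between libraries inside the gate and hardly in progenitor-gated cells. Of 14 genes of lipid and cholesterol synthesis 8 were at least 1.5-fold higher in gated cKO cells and none lower, with a median of 0.83. Over all measured genes the shares were 12.4% and 18.6%. Progenitor-gated cells had none of the list higher, 1 lower and a median of 0.02. Idi1, isopentenyl diphosphate isomerase, had 103 CPM in gated cKO cells and 31.4 CPM in gated Ctrl cells, and 34.5 and 26.9 CPM in progenitor-gated cells. Sqle, squalene epoxidase, had 98.6 CPM in gated cKO cells and 48.4 CPM in gated Ctrl cells, and 49.4 and 41.8 CPM in progenitor-gated cells. The difference between the classes has no test here, since each class has 1 library per group. The list was not summarised in cells with both programs or in cilia-gated cells, so whether it is particular to the gate was not tested.

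Genes of the sterol arm and 2 fatty acid enzymes were among the higher members, and not every member is named here. Fdps, farnesyl diphosphate synthase, had 183 CPM in gated cKO cells and 92.8 CPM in gated Ctrl cells. Insig1, the sterol sensor partner, had 19.2 CPM in gated cKO cells and 7.52 CPM in gated Ctrl cells, and Hmgcs1, a synthase of the pathway, had 39.9 and 25.1 CPM. Scd2 and Elovl6, a desaturase and an elongase, had 22.3 and 18.7 CPM in cKO and 6.30 and 8.50 CPM in Ctrl. Fasn, Acaca, Scd1 and Srebf1, the core of fatty acid synthesis and its regulator, did not pass the fold.

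**Figure D4:**
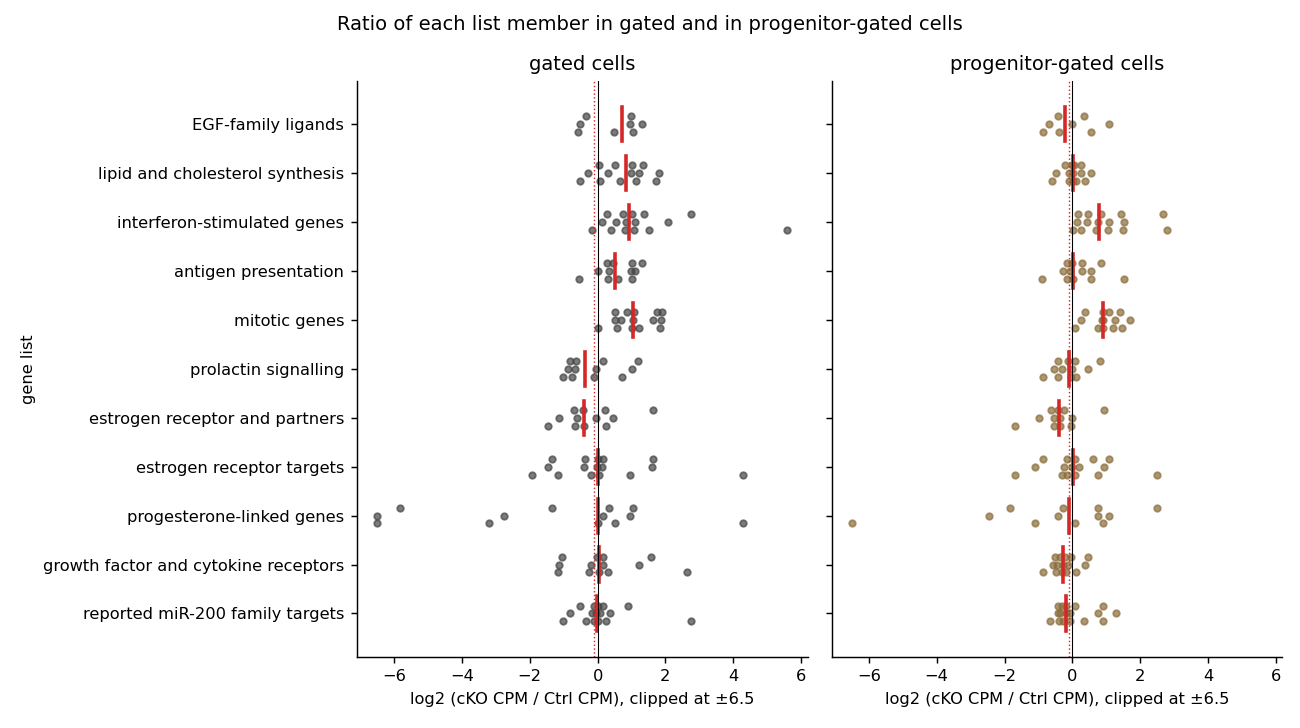
Log2 ratio of cKO over Ctrl for each measured member of 11 gene lists in gated cells (left panel) and progenitor-gated cells (right panel); red bars are list medians and the dotted line is the median of all genes. In gated cells the lipid list sits at 0.83 and the EGF ligands at 0.72, against 0.02 and -0.20 in progenitor-gated cells, while the interferon-stimulated and mitotic lists are high in both.

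Of 12 measured hypoxia and glycolysis genes, 2 were higher and 1 lower, against 12.4% and 18.6% of all measured genes. Hif1a, the hypoxia-inducible transcription factor, had 585 CPM in gated cKO cells and 158 CPM in gated Ctrl cells, a log2 ratio of 1.89 (1.82 to 1.96). Vegfa, the angiogenic growth factor, had 113 CPM in cKO and 50.8 CPM in Ctrl. The glycolytic genes did not follow: Ldha had 477 CPM in cKO and 508 CPM in Ctrl, and Pgk1 had 221 and 225 CPM.

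Mitotic genes gave 11 of 15 measured at least 1.5-fold higher and none lower, against 12.4% and 18.6% of all measured genes. The list median was 1.05, but few cells carried these genes. The 13 gated cKO cells with at least 20 mitotic UMIs, 1.28% of gated cells (0.685 to 2.18%), held 82.4% of the 1908 mitotic UMIs. The 4 such Ctrl cells, 0.749% (0.204 to 1.91%), held 59.2% of 898. The cut of 20 was made before thinning, so it is passed more easily in the deeper Ctrl library. Cells past it had median totals of 27627 UMIs in cKO and 58521 in Ctrl. The shares of such cells overlapped in their intervals. Without the top 1% of cells for each gene, 8 members were left, 2 higher and 0 lower, with a median of -0.11. That step takes out most of the few cells that carried these UMIs, so it cannot tell whether the list differs.

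Ccnd1, the target named in the title, had 99.4 CPM in gated cKO cells (94.3 to 105) and 89.8 CPM in gated Ctrl cells (84.8 to 95.1), a log2 ratio of 0.15 (0.03 to 0.26). In progenitor-gated cells Ccnd1 had 148 CPM in cKO and 87.7 CPM in Ctrl, a log2 ratio of 0.75. Among 14 measured D cyclins, partner kinases and inhibitors, 4 were higher and none lower in gated cKO cells. Over all measured genes the shares were 12.4% and 18.6%. Of the 4 higher genes, Cdk6, a kinase partner of D cyclins, had 6.27 CPM in cKO and 1.75 CPM in Ctrl. Cdkn1c, a kinase inhibitor, had 7.96 and 2.20 CPM, and Rb1 and Ccne2 were the others. Cdk4, the main partner, had 93.7 and 109.9 CPM and did not pass the fold.

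Reported targets of the miR-200 family gave 2 higher and 2 lower of 16 measured, against 12.4% and 18.6% of all measured genes. Their median log2 ratio was -0.02. Zeb1 had 9 UMIs in gated cKO cells and 17 in gated Ctrl cells, and Zeb2 had 0 and 1, so these targets were near the limit of detection in the gate. Ets1, a transcription factor with 3 miR-200c-3p seed matches in its 3′ UTR, had 82.0 CPM in cKO and 44.5 CPM in Ctrl. Fn1, fibronectin, was higher on 22 and 3 UMIs, and Jag1, a Notch ligand with no match to either seed, was lower at 12.2 and 21.5 CPM.

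Over all genes with an annotated 3′ UTR, the median ratio of those with a seed match was little different from that of those without. In gated cells the median log2 ratio was -0.05 for 1274 genes with a miR-200c-3p match, -0.06 for 1729 genes with a miR-141-3p match and -0.09 for 5644 genes with neither. In progenitor-gated cells the medians were -0.16, -0.15 and -0.10. In the same order, 8.87%, 8.39% and 9.16% were at least 1.5-fold higher in gated cells and 13.3%, 13.4% and 15.1% lower. In progenitor-gated cells 2.49%, 3.12% and 4.78% were higher and 9.88%, 9.72% and 8.71% lower. Genes with a miR-200c-3p match had a median UTR of 2524.5 bases in gated cells and those with neither 780.0 bases. The part of UTR length in these medians and shares was not tested. The deletion itself cannot be read from these counts, since mature microRNAs are not measured by 3′ libraries of polyadenylated RNA.

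Gated cells varied among themselves mainly in a few abundant genes. After thinning, the variance over the mean had a median of 1.05 over genes in cKO and 1.04 in Ctrl, where counting alone gives 1 for equal cells. In cKO it was highest for Glycam1 (84.1), Malat1 (42.5), Hspa1a, Sprr1a (18.03) and Fos (13.1), followed by Nupr1, Tmsb4x, Atf3, Hp and Fgb. In Ctrl it was highest for Malat1 (28.6), Hspa1a (18.1), Wfdc2 (17.8), Wfdc12 (16.2) and Hspb1 (15.6), followed by Saa1, Tmsb4x, Fgb, Neat1 and Calca. Fos, Atf3 and Hspa1a are early-response and heat-shock genes that tissue digestion is known to induce, and Malat1 is a nuclear RNA.

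The stress genes were not one-sided between the libraries. Of 16 immediate early and stress genes 2 were higher and 4 lower in gated cKO cells, against 12.4% and 18.6% of all measured genes. Their median log2 ratio was 0.00. Junb and Ier3 were the higher ones, at 2092 and 1843 CPM in cKO and 1295 and 1198 CPM in Ctrl. Btg2, Hspa1a, Hspa1b and Hsp90aa1 were lower, with log2 ratios of -0.96, -0.88, -0.69 and -0.81.

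Prlr level within the gate went with several other genes, given here as description because Prlr set the gate. The cells were ranked by Prlr in each library and divided into 3 equal groups. Ly6a had 2516, 2977 and 3344 CPM in the low, middle and high cKO groups, and 2660.4, 2946 and 3333 CPM in the Ctrl groups. Stat5a had 68.3, 71.9 and 86.2 CPM in cKO and 113, 139 and 161 CPM in Ctrl, so that even the high cKO group lay below the low Ctrl group. Wnt4 likewise had 138, 155 and 177 CPM in cKO and 347, 393 and 456 CPM in Ctrl.

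Esr1 and Areg ran in opposite directions along the same ranking. Esr1 had 32.5, 39.7 and 43.2 CPM in cKO and 34.4, 35.7 and 48.3 CPM in Ctrl from low to high Prlr. Areg had 5586, 4951 and 4450.2 CPM in cKO and 2831, 2619 and 2293 CPM in Ctrl. Tnfsf11 in Ctrl was mainly in the high group, with 25.7 CPM there against 4.64 and 6.38 CPM in the low and middle groups. Few cells carried it: 35.7% of its Ctrl UMIs lay in the top 1% of gated cells. Calca in Ctrl had 2952, 3271 and 3937 CPM.

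**Figure D5:**
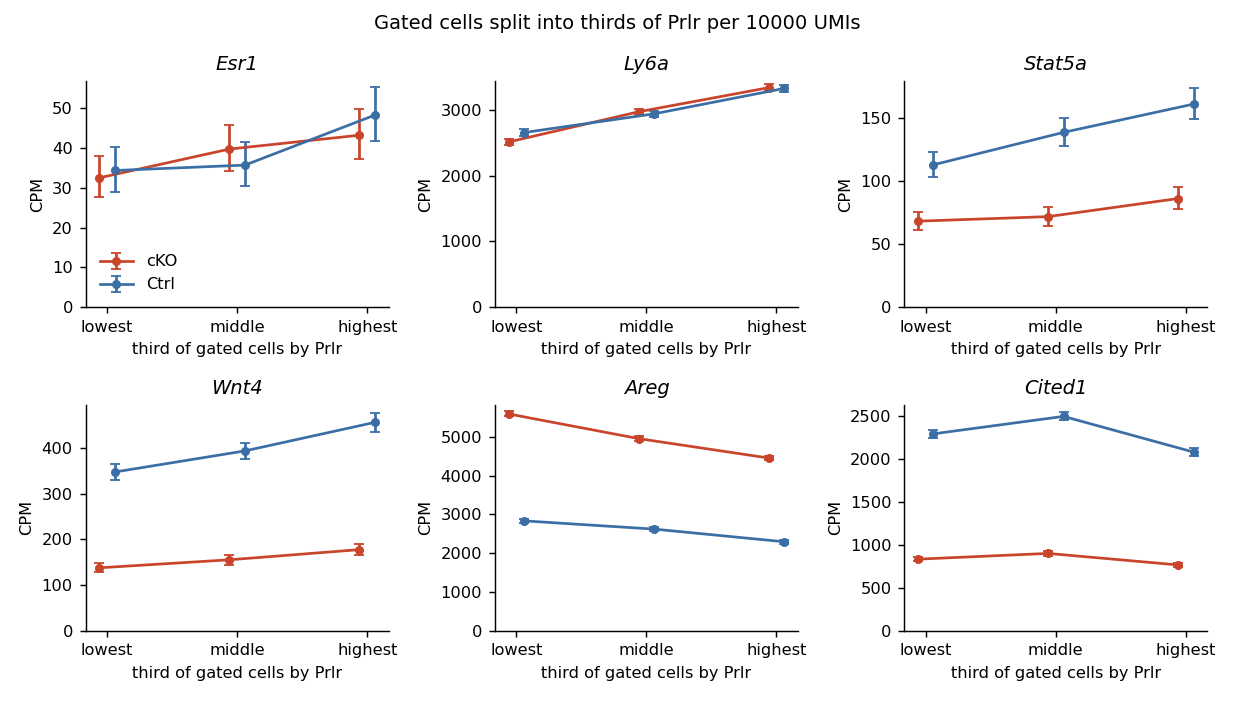
Level (CPM) of 6 genes in gated cells of low, middle and high Prlr, cKO in red and Ctrl in blue, with exact Poisson 95% intervals. Ly6a, Stat5a and Wnt4 run up and Areg down along Prlr in both libraries; the cKO points lie below the Ctrl points for Stat5a, Wnt4 and Cited1 and above them for Areg in each of the 3 groups.

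Summed markers of most other cell types were low inside the gate and similar between the libraries, with exceptions. Over 11 basal markers the summed level was 223 CPM in gated cKO cells and 216 CPM in gated Ctrl cells, against 27530 and 24849 CPM in basal-marker cells. Over 8 endothelial markers it was 51.5 and 43.4 CPM, against 3571 and 4400 CPM in endothelial-marker cells, and Egfl7 and Cldn5 were higher in cKO. Myeloid markers stood at 13.7 CPM in cKO and 4.63 CPM in Ctrl, where 4 of 8 were at 0, and Lyz2 had 55 UMIs in cKO and 1 in Ctrl. T and NK cell markers stood at 0.986 and 0.683 CPM, with Cd3d, Cd3e and Cd3g at 0 in both libraries, and B cell markers at 0.0704 CPM and 0. Fibroblast markers stood at 354 CPM in cKO and 446 CPM in Ctrl, of which Dcn alone gave 353 and 445 CPM. They were lower outside the gate, at 59.9 and 96.9 CPM in progenitor-gated cells and 83.8 and 181 CPM in basal-marker cells. Pericyte markers, nearly all Notch3, stood at 12.3 and 27.3 CPM inside the gate. Progenitor-gated cells had 12.4 and 15.2 CPM of them, and basal-marker cells 2.99 and 3.27 CPM. Whether gated cells make the Dcn and Notch3 RNA themselves was not tested.

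Of 13 measured progenitor markers, the 3 gate genes included, 3 were higher and 6 lower in gated cKO cells, and no gate gene was among them. Over all measured genes the shares were 12.4% and 18.6%. Lcn2, the iron-binding protein lipocalin 2, had 167 CPM in cKO and 484 CPM in Ctrl, Trf, transferrin, 26.5 and 70.1 CPM, and Mfge8, a milk fat globule protein, 67.9 and 211 CPM. Progenitor-gated cells had 6436 CPM of Lcn2 in cKO and 6640.5 CPM in Ctrl, and 639.7 and 2083 CPM of Trf. The part of free RNA in these levels was not tested. Of the keratins, Krt15 was higher at 57.1 CPM in cKO and 28.7 CPM in Ctrl, and Krt8, the gene whose promoter drives the Cre, had 3201 and 3482 CPM.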

How the data were processed

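Single-cell 3′ libraries were prepared on the 10x Chromium system, per the labels' protocols. In the matrices that the authors deposited, each value is a UMI count of 1 gene in 1 barcode, not normalized; Cell Ranger 2 and mm10 are named in the submitters' processing notes, while the file headers record software version 3.0.0, so the exact version is not settled. The files held 31053 genes and 10494 barcodes, 6257 in cKO and 4237 in Ctrl, and 99.6% of the genes were found by identifier in GENCODE M21. Reads, and the authors' cell annotation, were not used here.

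Cells with at least 500 genes and at most 10% mitochondrial UMIs were kept and gated as described. The members and gene lists were chosen with earlier results of these data known. Counts were summed over the cells of a class and divided by their total to give CPM. Levels carry exact Poisson, shares Clopper-Pearson and ratios conditional binomial intervals at 95%; UMIs of 1 cell are not independent, so these cover counting error only. Genes entered the count of differences at 100 UMIs or more in the library with the higher level, and list members at 20 or more over both; the fold was 1.5 and the floor 3 counts. Basal-marker cells had Krt18 under 50 and Krt5 plus Krt14 of at least 50 per 10000, endothelial-marker cells Pecam1 plus Cdh5 of at least 5.

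Named genes were the 15 highest and 15 lowest ratios among genes with at least 100 UMIs found in at least 5% of gated cells of the higher library, the 10 highest and 10 lowest against the other Krt18-gated cells, the 10 most variable per library, the hormone-sensing markers, Ccnd1, Zeb1, Zeb2, Krt8 and from each list up to 5 members of 50 UMIs or more, by distance of the log2 ratio from 0; clone-named models, pseudogenes, mitochondrial, ribosomal, Y-linked and gate genes and Xist were left out. Other list members in the text were named after their values were seen. Doublets were not removed, as the gate has no such step; Scrublet in scanpy 1.11.5 called 1.09% of cKO and 0.761% of Ctrl cells, 8 gated cells in each. On simulated sums of 31053 genes the calls recovered 198 of 200 changed genes and wrongly called 3 of 7821 unchanged ones. The simulated counts were Poisson, without spread between cells or mice, and every planted change was larger than the 1.5-fold threshold. This checks the calculation only and gives no rate of false calls for the real libraries. Python 3.11.15, numpy 2.4.6, scipy 1.17.1, pandas 2.3.3 and matplotlib 3.10.9 were used, with edgeR 4.0.16 in R 4.3.3 for trimmed-mean scaling of the counts only. Alternatives covered each gate threshold, depth, doublets, other-lineage cells, scaling, filters and the fold. Some members of the lists are not reported here.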

Additional observations from a re-analysis of the deposited data

Results flagged for a closer look

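The ratio of cKO over Ctrl ran in opposite directions in gated and in progenitor-gated cells for 3 listed or named genes past 1.5-fold in both; none of these differences was tested, since each class has 1 library per group. Cbr2, a carbonyl reductase, had a log2 ratio of 3.59 in gated cells, at 18.3 CPM in cKO and 1.52 CPM in Ctrl, and of -1.34 in progenitor-gated cells, at 6.98 and 17.7 CPM. Elf5 had a log2 ratio of 1.02 in gated cells, at 5.70 CPM in cKO and 2.81 CPM in Ctrl, and of -0.85 in progenitor-gated cells, at 25.9 and 46.8 CPM. With progenitor genes allowed up to 10 per 10000 the gated value was -0.019, so the opposition did not hold there. Plvap, an endothelial marker, had a log2 ratio of -0.67 in gated cells, at 4.58 CPM in cKO and 7.29 CPM in Ctrl, and of 2.67 in progenitor-gated cells, at 4.29 and 0.674 CPM. The gated value of Plvap was above 0 in 8 alternatives, with 1.81 without Scrublet calls, 0.88 without other-lineage cells and 0.66 without the top 1% of cells, so its opposite direction was not stable.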

How the results depend on the processing

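No paired analysis was possible because each group has 1 library. Under 22 alternatives, 4369 values of 243 single genes gave 3843 that moved less than counting error, 511 that moved more and 15 that turned round; of 129 genes past 1.5-fold, 32 fell under it in at least 1 alternative. The gated share of kept and of Krt18-gated cells in cKO was 19.7% and 28.1% at Prlr of 2 per 10000 or more, and 14.8% and 21.1% at 8 or more, where Ctrl had 11.5% and 18.4%. With progenitor genes under 2.5 it was 17.2% and 24.6%, and under 10 it was 20.6% and 29.4%, with 18.3% and 29.1% in Ctrl. With cilia genes under 1 UMI it was 15.9% and 22.6%, with no cilia clause 20.6% and 29.5%, and after thinning to 5000 UMIs 20.3% and 28.0%. Without cells over 10 per 10000 of other-lineage markers it was 15.9% and 22.7% in cKO and 12.97% and 20.6% in Ctrl. Krt18 of at least 100 gave 15.9% of kept cKO cells and a mitotic median of 1.65, and a mitochondrial limit of 5% gave 14.4% of kept Ctrl cells. Genes higher and lower numbered 1399 and 2090 at 20 UMIs, 2244 and 2951 with no filter and 390 and 440 at 2-fold; 562 were higher and 456 lower of 4295 after thinning to 5000, which leaves fewer genes tested and turns the excess of lower genes round. The progesterone-linked median was -1.38 after thinning to 5000 and -1.35 with members of at least 100 UMIs, since fewer members enter.

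Without the top 1% of cells for each gene, the mitotic median over the 8 members left turned to -0.11. Tpx2 was at -0.11, Ube2c at -0.22 and Cdc20 at -0.37. Plvap turned to 0.044 at Prlr of 2, 0.067 with no cilia clause, 1.81 without Scrublet calls, 0.10 after thinning to 5000, 0.88 without other-lineage cells (0.86 with Dcn not counted, an alternative chosen after seeing the data), 0.0036 with cells weighted equally and 0.66 without the top 1% of cells. Elf5 and Cd74 turned to -0.019 and -0.12 with progenitor genes under 10, Xdh and Egln3 both to 0.62 after thinning to 5000, and the cilia list to -0.12 with cilia genes under 1 UMI. The cause was not tested. With 1 library per group no spread between mice is known, and the intervals say nothing of it; genes under 20 UMIs were below what this depth resolves.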

Other observations

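Genes that flank the floxed microRNA locus on chromosome 6 gave 0 higher and 3 lower of 6 measured in gated cKO cells. Their median log2 ratio was -0.35. All measured genes gave 12.4% higher and 18.6% lower, around a median of -0.10. In progenitor-gated cells the list gave 0 higher, 2 lower and a median of -0.36. The shares over 12693 genes there were 7.89% and 12.9%, around a median of -0.11. Whether the lower levels are particular to this locus was not tested. Lpcat3, a phospholipid remodelling enzyme, had 47.9 CPM in gated cKO cells and 106 CPM in gated Ctrl cells, Phb2, a mitochondrial prohibitin, had 146 and 225 CPM, and Ptpn6, a tyrosine phosphatase, had 8.38 and 12.6 CPM. Emg1 and Atn1 did not pass the fold, with log2 ratios of -0.11 and 0.04.

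Milk genes were nearly absent inside the gate. Muc15 and Xdh, the 2 of 8 that reached 20 UMIs, were both lower, with 12 and 27 UMIs in gated cKO cells and 22 and 44 in gated Ctrl cells. Xdh had a log2 ratio of 0.62, higher in cKO, after cells were thinned to 5000 UMIs. The motile cilia list had 7 of 8 measured members higher in gated cKO cells, but 7 of its 13 genes set the gate.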
